A study of Mus musculus with 40 samples.

Results

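Presynaptic vesicle release and active zone genes were taken as 40 named genes whose proteins load, dock, fuse and recover synaptic vesicles or build the release site. All 40 were in the table, with every RefSeq transcript row that carried their symbols, and they made up 66 of the 6831 transcripts and 40 of the 5873 gene symbols measured. The rule used names and no measured value, but the names were chosen with earlier results of these data known. They lay on 17 chromosomes and held 2.23% of all normalised counts. Of the 40 genes, 19 were represented by 1 transcript and 21 by at least 2 (47 transcripts).

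RNA was sequenced from the cortex of male C57BL/6 mice aged 12 weeks. The mice had gone through repeated daily sessions of either a sham procedure or high-frequency head impact (HF-HI), and cortex was taken 24 h after injury. Memantine, which blocks the open channel of the NMDA receptor, or its saline vehicle was injected intraperitoneally each day, 1 h ahead of the session, giving 10 libraries in each of 4 groups named by drug and procedure. All animals, sham included, had been handled and anaesthetised daily, and the samples were bulk tissue, so that fewer cells of a type and less RNA per cell cannot be told apart in any result. The question was whether head impact shifts the transcripts of the release machinery and whether the drug changes that shift.

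At a presynaptic terminal, vesicles are filled with transmitter, tethered to a protein scaffold at the active zone, and fused with the plasma membrane when calcium enters. Fusion is driven by the SNARE proteins, timed by synaptotagmins as calcium sensors and by complexins, and followed by disassembly of the SNARE complex and recovery of the membrane by clathrin and dynamin. Neurexins span the presynaptic membrane and align the release site with partners across the cleft, and several of these genes are known for alternative splicing.

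The total count per library before division by its size factor ranged from 13322404 to 17529644, and the 10 libraries of each group spanned similar totals. Of the marker genes that check the tissue label, all 8 neuronal and all 5 excitatory neuron genes were in the table, and the neuronal sum was between 67815 and 75844 in every library. Of 15 striatal marker genes 10 were in the table, and their sum lay between 35868 and 57515 in saline sham and between 35570 and 49963 in saline HF-HI. Where the labels do not say that each library came from its own mouse, p-values measure the spread between libraries only.

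Several members were split between transcripts whose sequences show what was being counted. Snap25, the SNARE protein of the plasma membrane, uses either of a pair of mutually exclusive coding exons. The pair is shown because the balance between the transcripts that hold them was the steadiest of any member. Those transcripts also differ in total length (1014 bases for NM_001291056 and 2116 for NM_011428). The exons lie on the plus strand of chromosome 2 in GRCm38 (mm10), at chr2:136769743-136769860 in NM_001291056 and at chr2:136770057-136770174 in NM_011428. Each has 118 bases, and capitals mark the 31 aligned positions at which they differ. All exon and coding sequences here were read from GENCODE M21 transcripts matched to the RefSeq records.
Snap25 NM_001291056 exon: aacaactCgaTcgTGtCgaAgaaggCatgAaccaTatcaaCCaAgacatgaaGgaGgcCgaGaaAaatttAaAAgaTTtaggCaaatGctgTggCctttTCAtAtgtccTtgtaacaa
Snap25 NM_011428 exon: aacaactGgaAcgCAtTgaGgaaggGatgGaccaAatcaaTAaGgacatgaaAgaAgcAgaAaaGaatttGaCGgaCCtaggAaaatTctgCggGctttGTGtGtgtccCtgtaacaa

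Syt7, a calcium sensor of high affinity, was counted as NM_173068, which holds a pair of cassette coding exons between its membrane anchor and its calcium-binding domains, and as NM_018801, which lacks both. One cassette exon spans chr19:10430338-10430460 on the plus strand (123 bases, in capitals, with 12 exonic bases of the neighbouring exons in lower case on either side), and the other spans 369 bases at chr19:10426299-10426667. The shorter is printed because the balance of these transcripts differed between groups more than any other member's choice of transcript. The coding sequences of Amph, a membrane-bending protein of endocytosis, differed by the end of an exon at chr13:19121275-19121331, where NM_001289546 carries 12 further bases, shown in capitals. Its matched model is 3224 bases long in all, against 3367 for NM_175007, so these transcripts also differ outside the coding sequence. Counts belong to whole transcripts and not to the printed exons.
Syt7 cassette exon: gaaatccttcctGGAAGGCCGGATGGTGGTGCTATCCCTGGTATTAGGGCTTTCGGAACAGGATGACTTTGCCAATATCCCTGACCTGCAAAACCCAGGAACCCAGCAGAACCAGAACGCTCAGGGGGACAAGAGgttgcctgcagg
Amph exon: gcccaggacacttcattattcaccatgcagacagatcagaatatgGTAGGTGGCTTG

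The liprins Ppfia3 and Ppfia2, scaffold proteins of the active zone, are shown as members of the same family that differ widely in base composition. Across members, the correlation with a GC-related slope of each library, described below, rose with GC content. Their first 120 coding bases held 70.0% and 51.7% G and C, in capitals here, and their whole transcripts held 60.51% and 40.66%. Ppfia3 is transcribed from the minus strand of chr7:45339127-45366801 and Ppfia2 from the plus strand of chr10:106470339-106935952.
Ppfia3 NM_029741: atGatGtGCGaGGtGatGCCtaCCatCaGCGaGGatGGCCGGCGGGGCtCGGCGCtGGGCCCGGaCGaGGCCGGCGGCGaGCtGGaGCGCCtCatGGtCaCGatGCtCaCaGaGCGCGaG
Ppfia2 NM_001205341: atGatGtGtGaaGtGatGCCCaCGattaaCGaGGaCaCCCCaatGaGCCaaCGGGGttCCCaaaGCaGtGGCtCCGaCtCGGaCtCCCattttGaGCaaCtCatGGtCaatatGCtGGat

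The release genes spanned a wide range of abundance in saline sham cortex. Levels here are normalised counts per kilobase of matched transcript, summed over the transcripts of a gene, and the highest was 65.98 times the lowest with a median of 1180. Snap25 led at 18743 counts per kb, well above its fellow SNARE proteins Vamp2 on the vesicle (2101) and Stx1a on the plasma membrane (1202). Syt1, the main calcium sensor for fast release, was the next at 6391. The slower sensor Syt7 (2392) and the non-calcium-binding Syt11 (2433) stood close to each other. Their matched models differ: 1701 of 1704 bases are coding in Syt7 NM_173068 and 1290 of 4567 in Syt11 NM_018804. The closeness therefore depends on the models matched. The small GTPase Rab3a (3395) was above its relative Rab3c (1159) and the Rab3 effector Rph3a (781).

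Among the genes that take the fusion machine apart, the ATPase Nsf reached 3591 counts per kb, and its adaptors Napb and Napa reached 2334 and 1068. The complexins that clamp and speed fusion were at 2819 (Cplx2) and 2130 (Cplx1), while Stxbp5, which binds syntaxin and holds back release, was at 934. On the vesicle itself Syp reached 4159, the vesicular glutamate transporter Slc17a7 3547, Sv2b 2432, Syngr1 1676 and Sv2a 1555, and the synapsins that tether vesicles in the reserve pool reached 1047 (Syn1) and 786 (Syn2). The endocytic genes ran from dynamin, Dnm1, at 3724 and clathrin heavy chain, Cltc, at 3243 to Snap91 at 1316, Synj1 at 1244 and Amph at 1078.

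The active zone scaffold had the lowest median per kilobase of any class. Its highest member was Erc2 at 1033, followed by Rims2 (998), Bsn (923), Pclo (914), the priming factor Unc13a (819), Rimbp2 (754), Rims1 (711), Ppfia3 (596), Ppfia2 (459), Erc1 (319) and Cask (284), which was the lowest of all 40. The matched model of Rims2 NM_001256382 has 4716 coding bases of 4719, so the place of Rims2 depends on that model. The neurexins Nrxn3 and Nrxn2 were at 1067 and 606. Snap91, Cask, Rab3a and Syt1 each had transcripts matched to the same model, so no length difference between those was used. Cask NM_009806 and Syt1 NM_001252341 had models of their own (8260 and 4820 bases).

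Most members varied little from library to library. The median coefficient of variation within saline sham was 6.19%, and in 27 of the 40 genes the highest of the 40 libraries was less than 1.5 times the lowest. Only Syt7, Syn2 and Snap91 exceeded a ratio of 2.

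**Figure D1:**
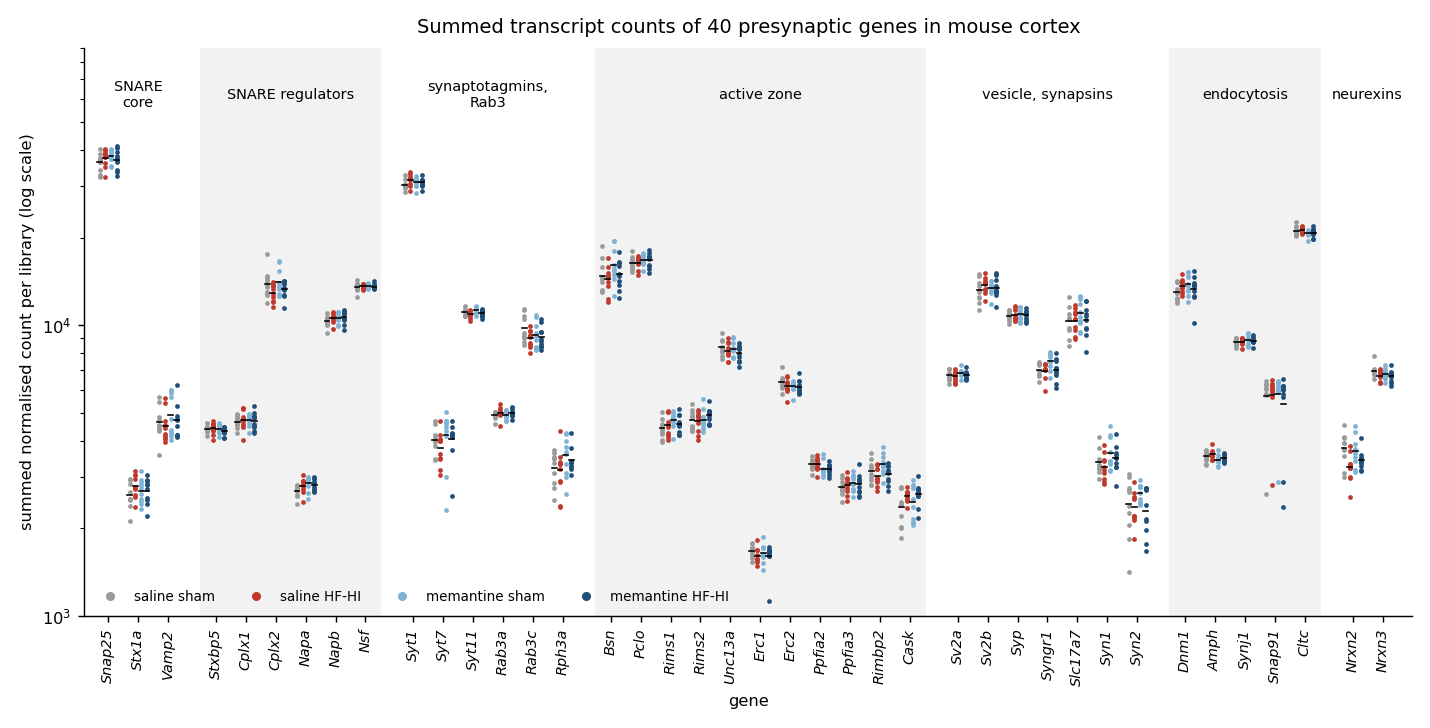
Summed normalised count, not divided by length (log axis), of each of the 40 release genes in every library, grouped by role, with 10 points and a line at the mean for each of the 4 groups. Snap25 was the highest, between 32286 and 41225, and the groups of each gene lay over one another, with a few low libraries of Snap91.

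HF-HI against sham in saline-treated mice moved few release genes. A gene was called here when its unadjusted p was below 0.05 in limma's moderated test on log2(count + 1), fitted over all 5873 symbols. The study's methods give a threshold of 0.05 for the memantine experiment. No member reached a Benjamini-Hochberg adjusted p below 0.1 in any of the 7 contrasts. Of all symbols 0.358% reached it in saline HF-HI, 0.017% for HF-HI under memantine, 0% for the drug in HF-HI mice, 0.0511% for the drug in sham mice, 0% for the interaction, 0.885% for HF-HI averaged over both drugs and 0.0681% for the drug averaged over both procedures. At the unadjusted threshold 2 of 40 members were called, against 10.7% of all symbols. Members were higher in 22 cases and lower in 18, with a median log2 difference of 0.0042 against -2.1e-05 over all symbols.

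Nrxn2, a neurexin, had the lowest p of all members. Its summed count ran from 3013 to 4530 with a median of 3829 in saline sham, and from 2574 to 3849 with a median of 3255 in saline HF-HI. Under memantine it ran from 3133 to 4508 (median 3636) in sham and from 3156 to 4089 (median 3399) in HF-HI mice. The groups overlapped, and 9 of 10 saline HF-HI libraries were below the saline sham mean. Libraries above or below a mean are counted on the scale tested, which is log2 for gene sums, the deposited scale for transcripts and percent for shares. The mean was 3770 ± 463 in saline sham and 3248 ± 361 in saline HF-HI (SD, n = 10 each), a log2 difference of -0.21 ± 0.069 (SE; limma p = 0.0037, adjusted p = 0.219; permutation p = 0.0136, two-sided). Its 3 transcripts contributed unequally: NM_001205234 averaged 2365 and 1969, NM_001205235 772 and 645, and NM_020253 634 and 633 in the same groups, and none of the 3 was called alone.

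Marker genes of other cells differed in the same comparison. All 10 striatal marker genes were lower in saline HF-HI (8 with limma p below 0.05, median log2 difference -0.18). The 5 inhibitory neuron genes measured did not all move the same way. Among them 4 were lower (3 with limma p below 0.05) and 1 was higher, at 0.16 (limma p below 0.05). All 5 excitatory neuron genes were higher (1 with limma p below 0.05). Of 7 astrocyte genes 6 were higher (2 with limma p below 0.05) and 1 was lower. The part of the neuronal and astrocyte markers in the Nrxn2 value was not tested. With the mean log2(count + 1) of the striatal markers in each library as a covariate the Nrxn2 difference was -0.17 (limma p = 0.0226, adjusted p = 0.71). Adjusting for the GC slope of each library, a setting chosen with the results in hand, gave -0.18 (limma p = 0.000137, adjusted p = 0.0486). With the most abundant Nrxn2 transcript in place of the sum the difference was -0.25 and was not called (limma p = 0.0748). Leaving out each library in turn gave -0.25 to -0.18.

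Syt1 was the only member called higher. It spanned 28735 to 32738 (median 30119) in saline sham and 28880 to 33671 (median 31882) in saline HF-HI, and the ranges largely coincided. The log2 difference was 0.056 ± 0.025 (SE; limma p = 0.0317, adjusted p = 0.42), 8 of 10 HF-HI libraries lay above the sham mean, and the two-sided permutation p was 0.0527. The call was lost with the striatal covariate (0.022, limma p = 0.331) and with quantile normalisation (limma p = 0.0998).

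Beyond these, 4 members came next by p and were not called. Cask, a scaffold kinase that binds neurexins, spanned 1851 to 2771 in saline sham and 2359 to 2766 in saline HF-HI, so the HF-HI range lay inside the sham range, and all 10 HF-HI libraries were above the sham mean on the log2 scale. Its log2 difference was 0.14 ± 0.072 (limma p = 0.0551). Napa was at 0.063 (p = 0.0698), Nrxn3 at -0.057 (p = 0.0514) and Rab3c at -0.11 (p = 0.061), all by limma.

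By role, each class held at most 1 called gene. The SNARE core had 2 of 3 genes higher and none called, the regulators and disassembly genes 5 of 6 higher and none called, and the 5 endocytic genes were all higher, by 0.0053 to 0.073, with none called. The synaptotagmins and Rab3 genes had 2 of 6 higher (Syt1 called), the scaffold 5 of 11 and the vesicle genes 3 of 7 with none called, and both neurexins were lower (Nrxn2 called).

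The precision of this comparison limits what could have been missed. The 95% confidence interval of the log2 difference lay inside ±0.2 for 30 of the 40 genes, among them Snap25, Syp, Slc17a7, Dnm1, Nsf, Bsn, Pclo, Rims1 and Unc13a. It lay inside ±0.3 for 37, the exceptions being Nrxn2, Snap91 and Syt7, and inside ±0.5 for all 40. The narrowest standard error was 0.016 and the median 0.044.

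**Figure D2:**
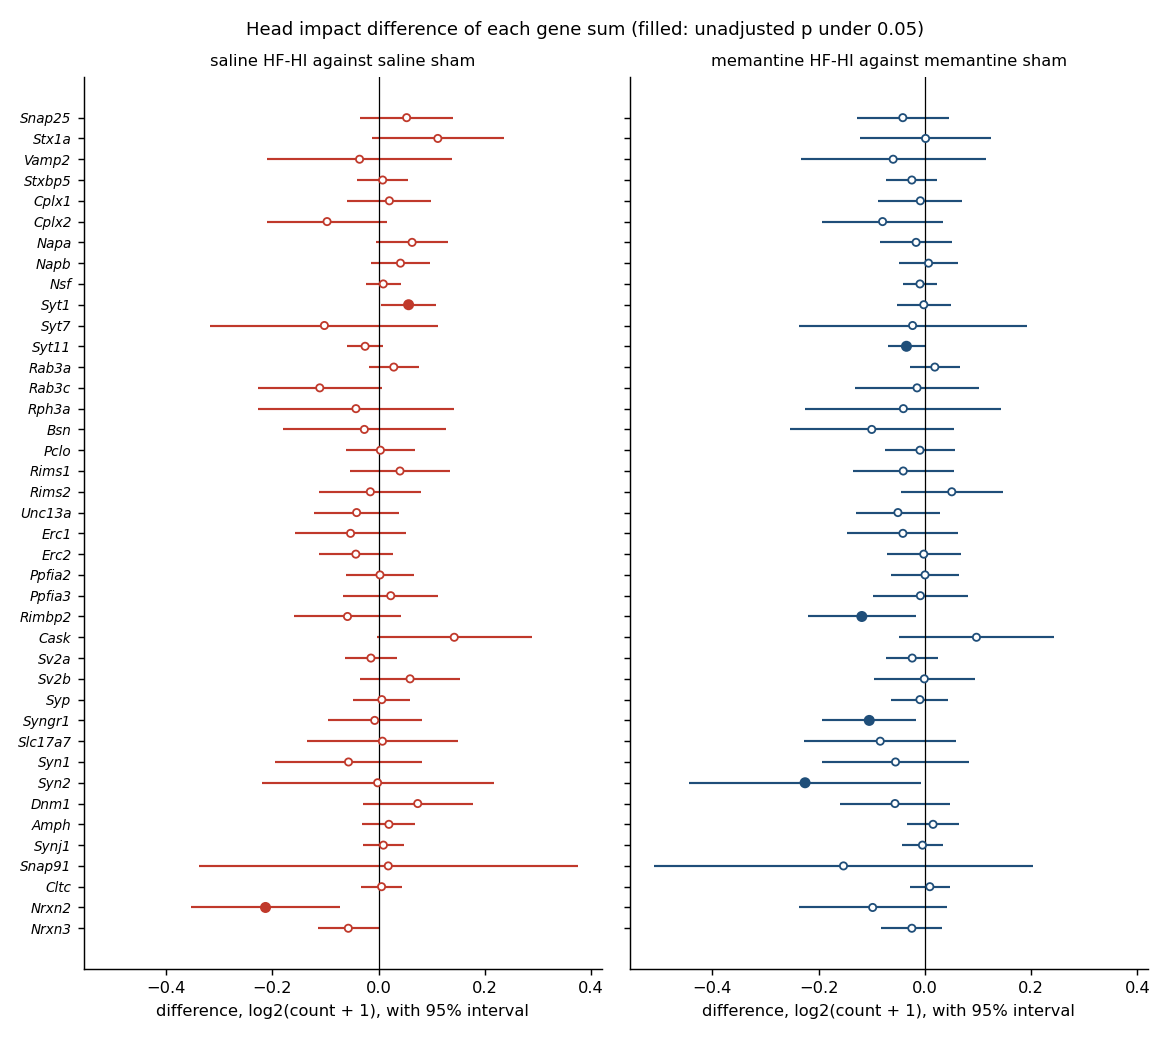
Log2 difference HF-HI minus sham of the summed counts of each gene (x axis, log2 units) with its 95% confidence interval, in saline-treated and in memantine-treated mice, ordered by role. Filled points have an unadjusted limma p below 0.05. Nrxn2 (-0.21) and Cask (0.14) lay at the ends in saline, and Syn2 (-0.23) was lowest in memantine.

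HF-HI against sham in memantine-treated mice called 4 of 40 members, all lower, against 4.38% of all symbols called and 2.08% called lower. Of the members 32 were lower and 8 higher, with a median of -0.023, where 2987 of all 5873 symbols were lower with a median of -0.00095. All members were read from the same libraries and so do not count as independent.

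Syngr1, a vesicle membrane protein, ran from 6597 to 8104 (median 7653) in memantine sham and from 6071 to 8021 (median 7030) in memantine HF-HI. The groups overlapped, with 8 of 10 HF-HI libraries below the sham mean. The log2 difference was -0.10 ± 0.044 (SE; limma p = 0.0213, adjusted p = 0.958; permutation p = 0.05). Rimbp2, which links RIM proteins to calcium channels, ran from 2863 to 3802 (median 3309) and from 2681 to 3352 (median 3117), with 9 of 10 HF-HI libraries below the sham mean and a log2 difference of -0.12 ± 0.050 (limma p = 0.0226, adjusted p = 0.958). Syn2 was at -0.23 ± 0.11 (limma p = 0.0432) and Syt11 at -0.035 ± 0.017 (limma p = 0.0464). Among members that were higher, Cask was at 0.097 (limma p = 0.184) and Rims2 at 0.051 (limma p = 0.291). Nrxn2 was at -0.098 under memantine (limma p = 0.162).

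All 7 vesicle and synapsin genes were lower in memantine HF-HI than in memantine sham, with log2 differences from -0.23 to -0.00097, and 2 of them (Syngr1 and Syn2) were called. In the same comparison 6 of 8 neuronal and 4 of 5 excitatory marker genes were lower with none called, and 4 of 7 astrocyte genes were higher with 2 called. Their part in these values was not tested. The same 7 genes were all higher in memantine sham than in saline sham. Both comparisons use the memantine sham libraries, and their values are set side by side for that reason only: Syngr1 was at -0.10 and 0.11, Syn2 at -0.23 and 0.17, Slc17a7 at -0.084 and 0.097, Syn1 at -0.055 and 0.097, Sv2a at -0.024 and 0.023, Syp at -0.0089 and 0.014, and Sv2b at -0.00097 and 0.031. Without memantine HF-HI replicate 1 no member was called for HF-HI against sham in memantine-treated mice. That count is given without the share of all symbols called in the same fit.

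Memantine against saline in sham mice called 3 of 40 members, all higher, against 7.92% of all symbols called and 3.83% called higher. Napa, the adaptor that brings Nsf to spent SNARE complexes, ran from 2436 to 2824 (median 2703) in saline sham and from 2524 to 2997 (median 2952) in memantine sham. The ranges overlapped, although 8 of 10 memantine libraries exceeded the saline mean, and the log2 difference was 0.091 ± 0.034 (SE; limma p = 0.0102, adjusted p = 0.532; permutation p = 0.0146). Syngr1 was 0.11 ± 0.044 higher (limma p = 0.0186, adjusted p = 0.571), from a saline sham range of 6369 to 7446. Rims1, a scaffold that recruits vesicles and calcium channels, was 0.096 ± 0.047 higher (limma p = 0.0478). Cltc (-0.032) and Amph (-0.041) had the lowest p among members that were lower, and neither was called. In all, 31 members were higher and 9 lower (median 0.027), the excitatory marker genes were higher in 5 of 5 cases (2 with p below 0.05), and the part of those cells in the members' values was not tested. Without memantine sham replicate 9, 7 members were called, a count given without the share of all symbols in that fit.

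Memantine against saline in HF-HI mice called 0 of 40 members, against 3.66% of all symbols. The 2 lower members with the smallest p were Amph at -0.044 ± 0.025 (limma p = 0.0793) and Ppfia2 at -0.050 (limma p = 0.119). The 2 higher members with the smallest p were Rph3a at 0.14 (limma p = 0.146) and Rims2 at 0.069 (limma p = 0.155). Amph counted 3428 to 3907 in saline HF-HI and 3364 to 3645 in memantine HF-HI, ranges that overlapped. The interval lay inside ±0.3 for 37 of 40 members.

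The interaction, which tests whether the effect of HF-HI differs between the drugs, also called 0 of 40 members against 3.59% of all symbols. Dnm1 had the lowest p, with a difference of differences of -0.13 ± 0.072 (limma p = 0.0807), and Napa followed at -0.079 (limma p = 0.104), with Rab3c at 0.096 (limma p = 0.243). For Nrxn2 it was 0.11 ± 0.097, with an interval from -0.082 to 0.31 (limma p = 0.246), so the lower value in saline HF-HI was not shown to differ from that in memantine HF-HI.

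**Figure D3:**
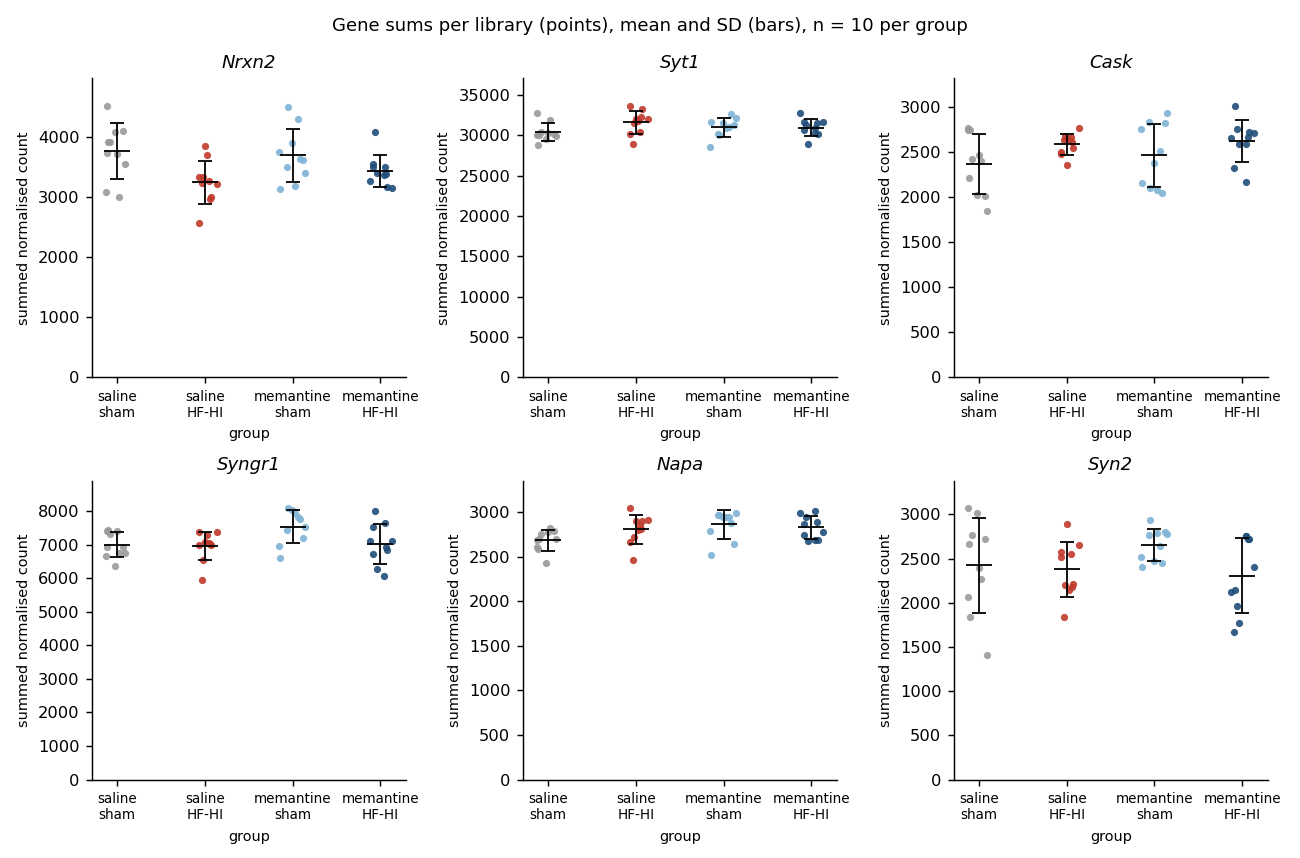
Summed normalised counts (y axes, from 0) of Nrxn2, Syt1, Cask, Syngr1, Napa and Syn2 in the 4 groups (x axes), with 10 points each and bars at the mean and SD. The Nrxn2 mean was 3770 in saline sham and 3248 in saline HF-HI, and the groups overlapped in every panel.

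Averaging over both drugs gave 6 called members for HF-HI against sham, against 10.9% of all symbols. Nrxn2 was again the lowest in p at -0.16 ± 0.049 (limma p = 0.0028, adjusted p = 0.177). Syt11 (-0.030), Rimbp2 (-0.089), Cplx2 (-0.088) and Nrxn3 (-0.041) were lower and Cask (0.12 ± 0.051, limma p = 0.0237) was higher, with p between 0.0154 and 0.0494 by limma for these 5. The Nrxn2 adjusted p was 0.0643 when libraries were weighted by their quality, and between 0.08 and 0.091 without saline sham replicate 1, saline sham replicate 4 or memantine sham replicate 9. With the most abundant Nrxn2 transcript in place of the sum the call was lost (-0.14, limma p = 0.142).

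Averaging over sham and HF-HI gave 6 called members for memantine against saline, against 8.85% of all symbols. The endocytic genes Amph (-0.042 ± 0.017, limma p = 0.0192) and Cltc (-0.030 ± 0.013, limma p = 0.0303) and the liprin Ppfia2 (-0.049) were lower. Napa (0.051), Rph3a (0.13) and Syn1 (0.098) were higher, the last with limma p = 0.0492.

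Single transcripts were tested on the scale of the deposited values, which is compressed at low counts, so that a log2 unit of count spans only 0.40 deposited units at a count of 1000 and 0.81 at 10000. For HF-HI against sham under saline 5 of 66 member transcripts were called, against 9.53% of all 6831. The others were 3 for HF-HI against sham under memantine (background 4.61%), 2 for the drug in HF-HI mice (3.91%), 5 for the drug in sham mice (7.51%) and 2 for the interaction (3.73%). No member transcript had an adjusted p below 0.1, where the background in the same order was 0.205%, 0.0146%, 0%, 0.0293% and 0%. Shares, the percent of a gene's summed count held by a transcript, gave 4 of 47 (background 5.01%), 2 (4.77%), 2 (4.83%), 2 (5.07%) and 4 (4.05%) in the same order, and since the shares of a gene with 2 transcripts mirror each other, each such gene counts double.

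Syt7 showed the widest exchange between groups. The share of NM_018801, the form without the cassette exons printed above, ran from 10.5 to 40.3% (median 16.4%) in saline sham and from 10.41 to 52.2% (median 27.2%) in saline HF-HI. In memantine sham it ran from 12.2 to 28.6% (median 21.9%) and in memantine HF-HI from 8.35 to 37.5% (median 18.5%). Saline HF-HI held the highest values, with 8 of its 10 libraries above the saline sham mean, but the ranges overlapped.

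The mean share was 17.6% in saline sham and 29.0% in saline HF-HI, a difference of 11.4 ± 4.0 points (SE; limma p = 0.0076, adjusted p = 0.816; permutation p = 0.0341). It was 10.6 points lower in memantine HF-HI than in saline HF-HI (limma p = 0.0122, adjusted p = 0.917), and the interaction was -14.03 ± 5.71 points (limma p = 0.0187, adjusted p = 0.994). Counts moved in opposite directions, from 694 to 1084 for NM_018801 and from 3340 to 2687 for NM_173068, while the summed Syt7 count differed by -0.10 on the log2 scale (limma p = 0.341).

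Syn2 differed in a single transcript between the memantine groups. NM_001111015, which has the longer coding sequence (1758 bases against 1437 in NM_013681), counted 1410 to 1950 (median 1725) in memantine sham and 1014 to 1715 (median 1319) in memantine HF-HI, with 10 of 10 HF-HI libraries below the sham mean. Its saline sham range was 938 to 1826 and its saline HF-HI range 872 to 2168, which enclosed the values of the memantine HF-HI libraries. The difference under memantine was -0.19 ± 0.056 deposited units (limma p = 0.0016, adjusted p = 0.809; permutation p = 0.00098), and the interaction was -0.23 ± 0.079 (limma p = 0.0060, adjusted p = 0.999).

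The share of NM_001111015 was 65.1% in the memantine sham group and 57.2% after HF-HI, lower by 7.88 points (limma p = 0.0196, adjusted p = 0.922), with an interaction of -11.91 points (limma p = 0.0131). NM_013681 averaged 933 and 992 in these groups, so the lower sum of Syn2 lay in NM_001111015, the form with the longer coding sequence.

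Amph shifted toward the transcript with the longer exon end in saline HF-HI. NM_001289546 held 45.4 to 59.5% (median 53.2%) in saline sham and 47.8 to 70.8% (median 56.0%) in saline HF-HI, a mean difference of 6.72 ± 2.94 points (limma p = 0.0279, adjusted p = 0.816), with the summed Amph count at 0.019 (limma p = 0.441). Erc2, a scaffold protein of the ELKS family, had 4.83 points more of NM_001347497 in memantine sham than in saline sham (limma p = 0.0459, adjusted p = 0.925; permutation p = 0.0617). The call was lost with the replicate number as a block (limma p = 0.0614) and with only the groups compared (limma p = 0.0705). Its other transcript, NM_177814, counted 2430 and 2819 in these groups.

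Snap25 held its balance of transcripts most closely. NM_011428 had a median of 91.9% of the summed count over the 40 libraries, with a range of 88.6 to 93.4% and an SD of 0.948 points, the smallest among the 21 genes with several transcripts, and Syt1 followed at 2.33 points. At the other end Ppfia2, Syn1, Erc1 and Pclo had SDs of 10.7, 10.6, 10.6 and 10.5 points, and Snap91 12.6 points.

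Synj1, the phosphatase that uncoats recovered vesicles, was steady in its sum (SD of 0.041 on the log2 scale within groups). Its minor transcript NM_001164483 had a median share of 6.56% but reached 54.5% in memantine HF-HI replicate 3 and 42.7% in saline HF-HI replicate 10, against at most 15.8% in the other 38 libraries.

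Snap91, the clathrin adaptor AP180, was the most variable member, with a set of low libraries that reached across all 4 groups. Of the 40 libraries 5 had sums between 2365 and 2893 and the other 35 between 5656 and 6533, with nothing between. The 5 were saline sham 6 (2622), memantine sham 1 (2893), saline HF-HI 8 (2815), memantine HF-HI 1 (2878) and memantine HF-HI 4 (2365), so every group held at least 1. NM_001277986 carried the gap, with 1115 to 1506 in those 5 libraries against 4096 to 5986 in the rest, while NM_013669 was at 1250 to 1412 against 340 to 2221. The gap was 0.97 on the log2 scale. Both records were matched to the same annotated model, so the annotation used here does not say which bases separate them, and the libraries are described without a test.

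**Figure D4:**
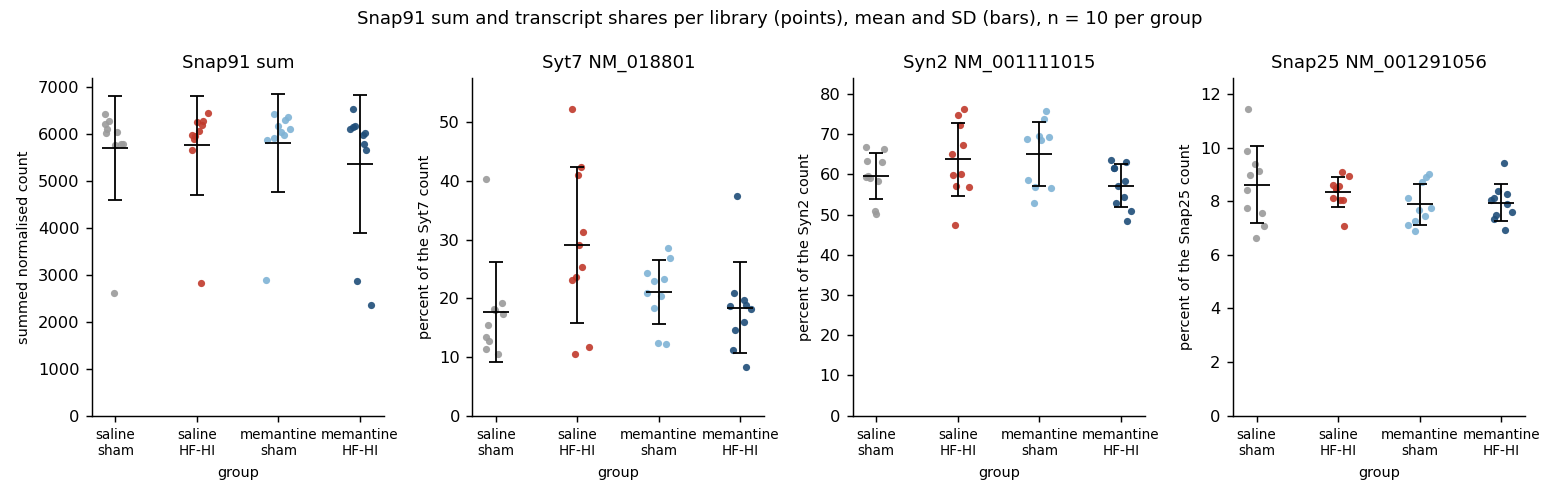
Per library in the 4 groups, the summed Snap91 count and the percent share of Syt7 NM_018801, Syn2 NM_001111015 and Snap25 NM_001291056, with bars at the mean and SD. The 5 low Snap91 libraries stood at 2893 or below, Syt7 reached its highest share (52.2%) in saline HF-HI, and the Snap25 share stayed between 6.63 and 11.4%.

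Across the 40 libraries, the levels of many members, as of many other genes, tracked a property of the library. For each library a slope was fitted of its deviations from the mean of each gene on the GC content of 5761 genes that are no members, in log2 units per 10 points of GC. The slopes lay between -0.16 and 0.14 and overlapped in all 4 groups, with two-sided permutation p between 0.327 and 0.589 in the 4 comparisons (adjusted p = 0.589 in each).

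For the correlations, both the slopes and the members' levels were taken as deviations from the group means. Ppfia3, the GC-rich liprin shown above, followed the slope most closely, with Pearson's r = 0.889 and Spearman's rho = 0.888 over 40 libraries (permutation p = 1e-05 for each, the smallest that 100000 permutations can give), r = 0.898 without the 2 libraries farthest from the median slope, and 0.878 to 0.946 within the 4 groups. Bsn, a giant scaffold protein, had r = 0.839 and rho = 0.815, and Nrxn2 had r = 0.809 and rho = 0.777, both with permutation p = 1e-05. Cltc went the other way with r = -0.666 and rho = -0.657 (permutation p = 1e-05).

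Of the 40 correlations tested 23 had an adjusted p below 0.1. The smallest of these had an absolute r of 0.316, and 50.2% of the genes that are no members had an absolute r at least as large. Of these 20 were positive and 3 negative, the latter being Cltc, Ppfia2 and Rab3c. All 15 members with at least 55% GC had a positive r (median 0.624), whereas 12 of the 17 members under 50% GC had a negative one. Over the 40 genes r rose with GC content (Pearson's r = 0.854, Spearman's rho = 0.825, a description across genes of the same libraries), and over genes that are no members Pearson's r was 0.751.

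With adjustment for that slope, a setting chosen after seeing the data, 7 members were called in saline HF-HI against saline sham in place of 2, where 12.5% of all symbols were called in that fit: Dnm1, Napa, Nrxn2, Ppfia3, Rab3c, Stx1a and Syt1. Of the members only Nrxn2 passed an adjusted p of 0.1 in that fit (0.0486).

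**Figure D5:**
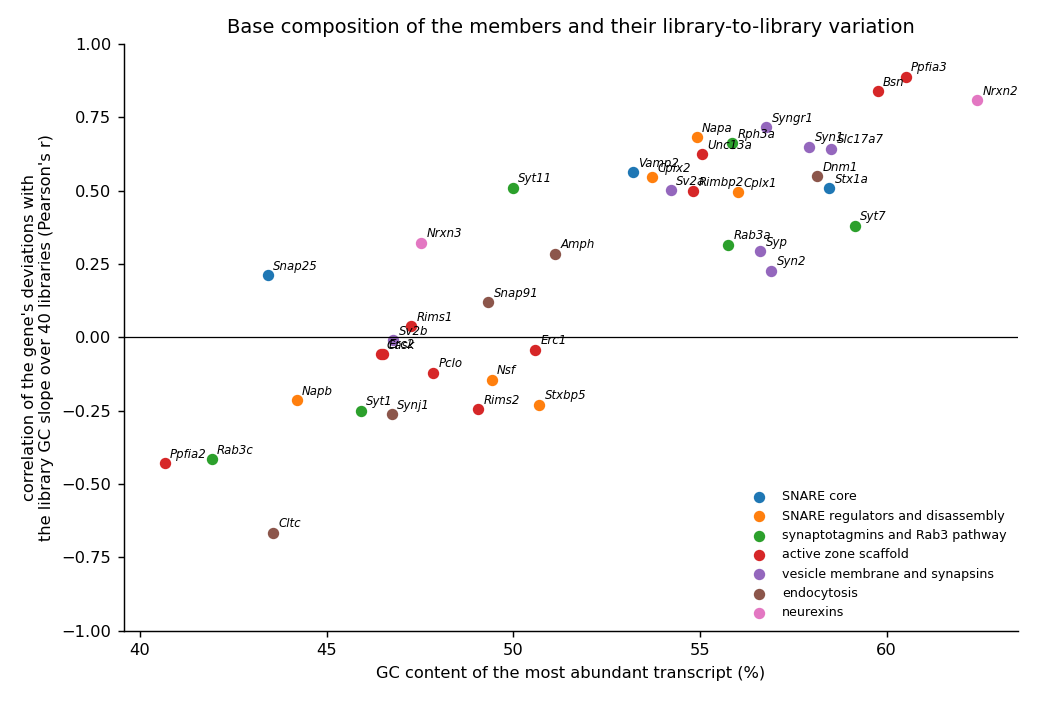
Correlation over 40 libraries of each member's level with the library GC slope (Pearson's r, y axis) against the GC content of its most abundant transcript in percent (x axis), with a point per gene coloured by role. GC-rich members such as Ppfia3 (r = 0.889) stood at the upper right, and Cltc (r = -0.666) was the lowest.

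A list of other presynaptic genes was examined beside the members. Of 85 listed genes that are no members 68 were in the table, and under saline 27 were higher in HF-HI than in sham and 41 were lower, with a median log2 difference of -0.013. Of these, 3 were called in each direction, where 10.7% of all symbols were called, and none had an adjusted p below 0.1. Dnajc6, the auxilin that strips clathrin from vesicles, averaged 8473 ± 330 in saline sham and 9039 ± 293 in saline HF-HI (SD, n = 10 each; log2 difference 0.094 ± 0.028, limma p = 0.0019, adjusted p = 0.19). Eps15, an endocytic adaptor, was at 0.060 (limma p = 0.0352). Lower were Ptprf, a receptor phosphatase of the presynaptic membrane, at -0.14 (limma p = 0.0062) and Ap2b1, a subunit of the clathrin adaptor AP2, at -0.051 (limma p = 0.0067). In the other comparisons between 0 and 4 of the 68 were called in either direction.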

How the data were processed

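Per the study's methods, stranded ribosome-depleted cortex libraries were aligned to mm10 with STAR and counted per transcript with eXpress by the authors, while the submitters' processing notes name HISAT2 and StringTie. The deposited values are variance-stabilised (log2-like, from DESeq2, by the authors) and cover abundant transcripts only. They were inverted here to normalised counts, taking the floor of 10.36 as a count of 0. All values under 5000 were then whole multiples of 1 over a size factor (tolerance 0.1 counts). The labels give 10 libraries per group, although the series text gives 4.

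limma 3.58.1 in R 4.3.3 (lmFit, eBayes with trend) was fitted to log2 of each symbol's summed count + 1, to the deposited values and to transcript shares over all 40 libraries, with a term per group and Benjamini-Hochberg adjustment over each whole table. Permutation tests used 100000 draws and were two-sided. Scripts were tested on simulated data. Depth was 13322404 to 17529644 counts per library.

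Named gene sums were the 3 with the smallest p in each direction for saline HF-HI against saline sham and 2 in other contrasts, and for transcripts and shares the 3 or 2 smallest. Others were chosen after their values were seen. Members and lists were chosen with earlier results of these data known. Alternatives were other normalisations, library weights, covariates, filters, scales, a replicate block, fewer groups and leaving out each library.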

Additional observations from a re-analysis of the deposited data

Results flagged for a closer look

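In groups of 10 libraries, 12 of 160 gene and group sets held a library set apart from its neighbours by Dixon's criterion, where chance gives about 8. High values were Cplx2 in saline sham 5 (17569, group median 13671), Nsf in memantine HF-HI 6 (14222, median 13441), Nrxn2 in memantine HF-HI 7 (4089, median 3399) and Nrxn3 in saline sham 9 (7849, median 6893). Low values were Syt7 in memantine HF-HI 1 (2593, median 4222), Rab3a in saline HF-HI 1 (4513, median 4981), Erc1 in memantine HF-HI 9 (1129, median 1657), Erc2 in memantine sham 6 (5507, median 6203) and Cltc in memantine sham 4 (19433, median 20790). Snap91 was low in saline sham 6 (2622), saline HF-HI 8 (2815) and memantine sham 1 (2893), against group medians of 6029, 6022 and 6077.

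The interaction of HF-HI and drug had an unadjusted limma p below 0.05 for 2 of the 66 member transcripts, against 3.73% of all transcripts. They belonged to Syn2 and Syt7. On the deposited scale the interaction was -0.2291 for Syn2 NM_001111015 (limma p = 0.006) and -0.3183 for Syt7 NM_018801 (limma p = 0.015). In shares it was -11.91 points for Syn2 NM_001111015, mirrored by 11.91 for NM_013681, and -14.03 points for Syt7 NM_018801, mirrored by 14.03 for NM_173068. All had adjusted p above 0.9 by limma.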

How the results depend on the processing

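Over the settings that used all libraries, the count of called members stayed within 1.5 times its value in 111 cases and moved further in 34. With the library GC slope as a covariate (added after the data were seen), gene sums called 7 members in saline HF-HI against saline sham, 2 in memantine HF-HI against memantine sham, 1 for the drug in HF-HI mice, 1 for the interaction and 1 for the drug averaged, transcripts 9 for HF-HI under saline and shares 4 for the drug in HF-HI mice. Library weights gave 6, 1 (drug in HF-HI), 6 (drug in sham) and 5 (interaction) for gene sums, 8 and 5 (interaction) for transcripts, and 4 for shares (drug in HF-HI). A mean count of at least 1000 gave 1 and 1 for transcripts (drug in HF-HI, interaction) and 1, 1 and 2 for shares (HF-HI under memantine, drug in HF-HI, interaction). The most abundant transcript alone gave 1 (drug in HF-HI), 1 (interaction), 3 (HF-HI averaged) and 3 (drug averaged). Quantile normalisation gave 2 (HF-HI under memantine) and 1 (interaction), the striatal covariate 1 (saline HF-HI), 3 (drug averaged) and 0 (shares, drug in sham), log2 shares 1 (drug in sham), log2(count + 1) 1 (transcripts, drug in HF-HI), and only the groups compared 1 (transcripts, drug in HF-HI) and 0 (shares, drug in sham). The cause of these moves was not tested. Apart from the 12.5% of all symbols for the GC slope in saline HF-HI, no background share stands beside the counts in this section. They describe the settings and are not read as results about the members.

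Same-numbered libraries did not deviate together on average (mean correlation -0.048 to 0.0087 over 10 pairs in each comparison). The samples were therefore treated as unpaired, although 10 pairs cannot exclude a shared batch or day. With the replicate number as a block, saline HF-HI against saline sham called 4 gene sums and shares called 0 for the drug in sham mice, and no other count moved by over 1.5 times.

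Leaving out 1 library at a time, gene sums called 1 to 5 (saline HF-HI), 0 to 4 (HF-HI under memantine), 0 to 1 (drug in HF-HI), 2 to 7 (drug in sham), 0 to 4 (interaction), 4 to 7 (HF-HI averaged) and 1 to 8 (drug averaged). Transcripts called 2 to 10 (10 without saline sham 4), 1 to 4, 0 to 3, 3 to 7 and 2 to 4 in the first 5 of these comparisons, and shares 2 to 6, 2 to 4, 2 to 4, 0 to 4 and 4 to 5. Of single named differences 1 reversed: Amph in memantine sham against saline sham was 0.0316 (limma p = 0.674) with its most abundant transcript alone, against -0.041. An adjusted p below 0.1 was reached by Nrxn2 alone.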
